A study of Brassica rapa subsp. rapa with 9 samples.

Results

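Genes annotated as transporters, carriers and channels were followed in the swollen hypocotyl of turnip (Brassica rapa subsp. rapa), cultivar Tsuda, a red-skinned storage organ, exposed to blue light or to ultraviolet light (UV-A or UV-B). Members were array probes whose deposited annotation contains transporter, carrier, antiporter, symporter or channel. Names with electron transporter, kinase, phosphatase or oxidoreductase and the water channels PIP3 and PIP1B were left out. The 40 probes described here, of 2507 tested, carry 33 gene names. A name is that of the best sequence match, an Arabidopsis gene in all cases but 1 (LOC507643, a chloride channel), which is bovine. A total of 27 names had 1 probe and 6 had more. The organs were exposed for 24 hours or stayed in darkness, and a peeled surface layer was sampled. Each of the 9 arrays set RNA of exposed organs (labelled with Cy3) against RNA of dark organs (Cy5), with 3 arrays per light. All groups were of the same cultivar, and replicates were biological, each made from several plants, per the series' design text.

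Plant cells move solutes across membranes with channels, which let ions or water pass down a gradient, and with carriers, which couple a solute to a gradient of protons or to a second solute. Proton pumps build these gradients at the plasma membrane and at the vacuole, the compartment in which a storage organ keeps sugars, ions and pigments. The annotation uses the same words for proteins that move other proteins, so coat proteins of vesicles, nuclear import receptors and cargo receptors are members too. Roles given below are those known in Arabidopsis.

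Values are log2(light/dark) on 1 array, so that 1 unit is a doubling over the dark sample, and a negative value is a lower level in the light. Each such value includes any dye bias of its probe, since dyes were not swapped. A difference between lights does not, because the dyes ran the same way on all arrays. A probe passed at an adjusted p under 0.05 in limma, adjusted over all 2507 probes. In bulk RNA of this kind, fewer cells of a type and less RNA per cell cannot be told apart.

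The signal was lower on 2 arrays than on the others. In the light channel, 27 of the 40 probes stood at least 1.5 times above their background on UV-B replicate 1 and 33 on UV-B replicate 2, against 38 to 40 on the other 7 arrays. In the dark channel these counts were 33 and 35, against 38 to 40. On the arrays numbered 3, 79.3% to 99.3% of 135 spots without a clone were above background in the light channel, against 2.22% to 7.41% on the arrays numbered 1 and 2. A light channel above background on an array numbered 3 thus does not tell a probe from an empty spot. The part of the arrays numbered 3 in the results was not tested beyond the fits without them. Duplicate spots of the members correlated within an array at 0.601 to 0.954 across 38 probes, which are not independent replicates. Of the tissue markers looked for, those of green tissue (3 probes) and the water channels PIP3 and PIP1B were found. The water channels had 3 probes of 2 genes, which all fell in UV-B, where 13.9% of all probes fell. Symbols searched for as markers of the surface layer and of vascular tissue matched CER3 and PP2A-1, but these probes are annotated as a ubiquitin ligase and a protein phosphatase and were not used as markers. The single call among the green tissue probes was a rise of LHCB2.1, a chlorophyll-binding antenna protein, in blue light on 1 of its 2 probes. It was near the threshold (adjusted p = 0.0494 in limma), and 1.12% of all probes rose in blue light.

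UV-B moved the most transport probes. Against darkness 3 of 40 rose and 4 fell, which is 7.5% and 10%, where 10.8% and 13.9% of all probes did so. In either direction 7 were called, or 17.5%, where 24.7% of all probes were. KUP5, a potassium transporter, and AT1G21900, a cargo receptor of early secretory vesicles, were among those that rose. The metal transporter NRAMP3 and the vesicle coat gene AT1G62020 were among those that fell. The median log2(UV-B/dark) of the members was 0.14, against 0.01 over all probes. The share of members called lay below that of the array as a whole.

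Blue light raised 1 probe (2.5% of the members, where 1.12% of all probes rose), a probe of the sugar porter AT5G18840, and lowered none (where 2.35% of all fell, and 3.47% of all were called in either direction). In UV-A none passed, where 3.19% of all probes did. Without adjustment, 10 of the 40 had a p under 0.05 in blue light and 8 in UV-A. The share of all probes at that limit was not counted, so these counts are not read as a response of the members. With the replicate number as a block in the model, 4 of the 40 (10%) rose in blue light, where 16.1% of all probes were called, and 1 rose and 3 fell in UV-A, where 11.1% of all were called. That block takes the spread shared by arrays of the same number out of the error of a mean against dark. Calls against dark that pass with the block alone, here and below, thus leave out that spread between replicates. The members' median log2 was 0.18 in blue light and 0.06 in UV-A, against 0.02 and -0.001 over all probes.

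**Figure D1:**
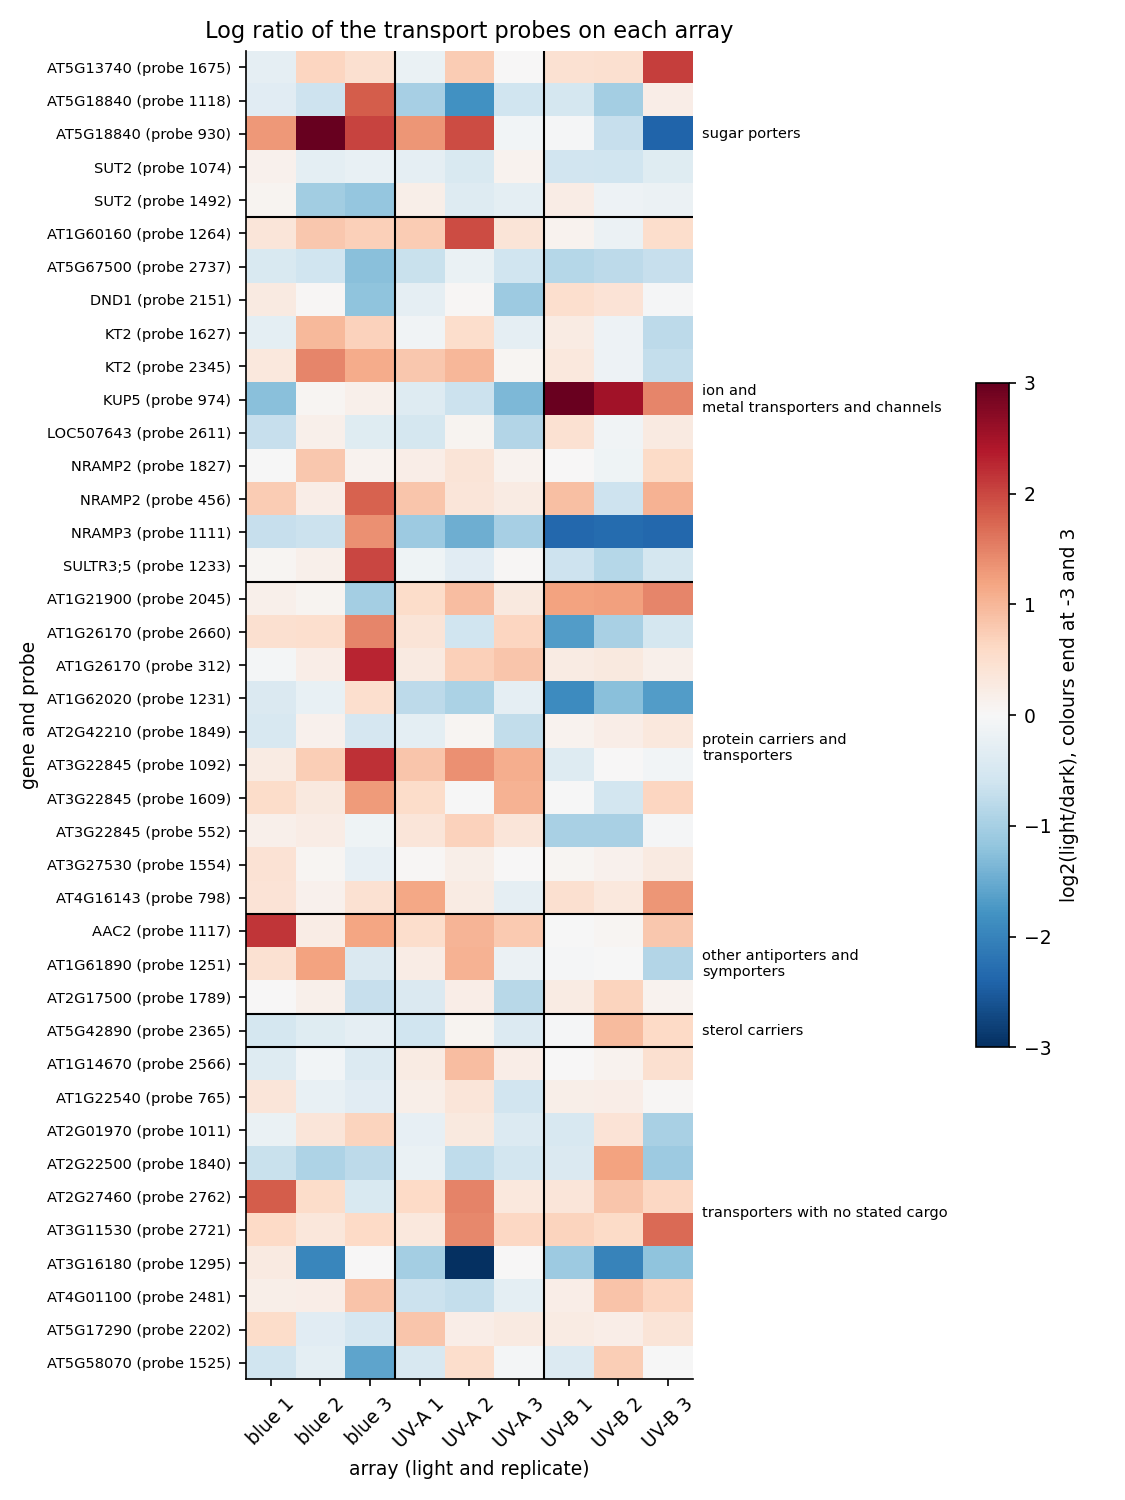
Log2(light/dark) of each of the 40 transport probes (vertical axis, grouped by the role stated in the annotation) on each of the 9 arrays (horizontal axis, by light and replicate), with red above and blue below the dark sample. KUP5 is red on the 3 UV-B arrays, at 1.46 to 2.96, while NRAMP3 is blue on the same arrays.

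The group of ions and metals held 11 probes of 9 genes, and in UV-B 1 rose and 2 fell, near the 10.8% and 13.9% of all probes. KUP5 belongs to the family of potassium carriers that supply potassium for cell expansion and turgor. It had log2 values of 2.96, 2.52 and 1.46 in UV-B. In blue light it had -1.24, 0.07 and 0.15, and in UV-A it had -0.38, -0.65 and -1.35. All 3 UV-B arrays were high, and they did not overlap with the 6 arrays of the other lights. The rise over darkness was 4.96-fold (log2 2.31 ± 0.366 SE, n = 3, adjusted p = 0.00119 in limma). UV-B also exceeded blue light by a log2 of 2.65 ± 0.518 (adjusted p = 0.00686) and UV-A by 3.10 ± 0.518 (adjusted p = 0.00343). Without arrays numbered 3 the difference from blue light was 3.32, and its call was kept. KUP5 was the only one of the 40 probes for which UV-B against UV-A passed (2.5%, where 6.62% of all probes passed, 2.03% higher and 4.59% lower).

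The other members of the potassium family had no value that passed. KT2, which acts in cell expansion, had mean log2 values of 0.46, 0.05 and -0.23 in blue light, UV-A and UV-B on probe 1627. Its probe 2345 had 0.97, 0.63 and -0.19. The highest, 0.97 ± 0.315 in blue light (adjusted p = 0.102 without a block), passed with the replicate block (adjusted p = 0.045). AT1G60160, a further member, had 0.63, 1.03 and 0.16, with adjusted p = 0.103 for the value in UV-A. It was above background in the light channel on 1 of the 3 UV-B arrays. That array was replicate 3, where 99.3% of spots without a clone were too. Whether KUP5 differed from these genes was not tested, since each is measured by its own probe.

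NRAMP3, a carrier of the vacuolar membrane that releases stored iron and manganese to the cytosol, fell in UV-B. Its log2 values were -2.35, -2.31 and -2.36 in UV-B, -1.09, -1.46 and -0.99 in UV-A, and -0.70, -0.66 and 1.37 in blue light. The 3 lights did not overlap, with UV-B lowest, UV-A in the middle and blue light highest. The level in UV-B was 5.06-fold lower than in darkness (log2 -2.34 ± 0.366 SE, SD over arrays 0.027, n = 3, adjusted p = 0.00111), though the light channel was above background on 2 of the 3 UV-B arrays. Of these, replicate 3 also had 99.3% of spots without a clone above background. The difference from blue light was -2.34 ± 0.518 on the log2 scale (adjusted p = 0.0115). It was -1.66 without blue replicate 3, -1.75 with print-tip loess and -1.52 in the authors' processed values, and its call was kept each time (adjusted p of 0.0149, 0.0105 and 0.0143), as it was without arrays numbered 3 (-1.65, adjusted p = 0.0404). In UV-A the mean was -1.18 ± 0.366 (adjusted p = 0.105), which passed with the replicate block (0.0382), with print-tip loess (0.0358), without blue replicate 3 (0.0157) and in the authors' values (0.0117). UV-B against UV-A, at -1.16 (adjusted p = 0.196), also passed without blue replicate 3 (0.0365).

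NRAMP2, its relative in the secretory pathway, had no value that passed. Its probe 456 had means of 0.91, 0.48 and 0.45 in blue light, UV-A and UV-B, and its probe 1827 had 0.30, 0.23 and 0.15. Both lay above 0 in every light, with intervals that included 0 in UV-A and UV-B.

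Among the channels, AT5G67500 encodes a voltage-dependent anion channel of the outer mitochondrial membrane. Its log2 values were -0.84, -0.78 and -0.68 in UV-B, -0.67, -0.20 and -0.59 in UV-A, and -0.45, -0.59 and -1.26 in blue light. All 9 arrays were below 0. Blue light overlapped with both other lights, and UV-B lay just below UV-A. It fell in UV-B (by 0.77 ± 0.256 on the log2 scale, adjusted p = 0.0472), while blue light had the same mean of -0.77 and did not pass (adjusted p = 0.107). UV-B and blue light differed by 0.0005 (log2), with a 95% confidence interval from -0.79 to 0.79. The call in UV-B was lost with median centring (adjusted p = 0.0561), without arrays numbered 3 (0.074), and without any 1 of blue replicate 2 (0.0649), UV-A replicates 1, 2 and 3 (0.0788, 0.0583 and 0.0724) and UV-B replicates 1, 2 and 3 (0.179, 0.119 and 0.135).

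DND1, a cyclic nucleotide-gated cation channel of defence signalling, had -0.30, -0.44 and 0.29 in blue light, UV-A and UV-B and did not pass. In UV-B both of its channels were above background on 1 of 3 arrays, replicate 3. The probe with the bovine chloride channel name, LOC507643, had -0.30, -0.44 and 0.21, and in the authors' values it passed in UV-B (log2 0.66, adjusted p = 0.0335). The sulfate transporter SULTR3;5 had 0.74, -0.15 and -0.67, with single values of 0.07, 0.15 and 2.00 in blue light, where replicate 3 was high, and -0.62, -0.85 and -0.53 in UV-B. UV-B and blue light did not overlap, and their difference of -1.41 ± 0.495 (log2, adjusted p = 0.069) passed with the replicate block (0.028), with plain background subtraction (0.0407) and without blue replicate 1 (0.0483). Its mean in UV-B passed without blue replicate 3 (0.0395).

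**Figure D2:**
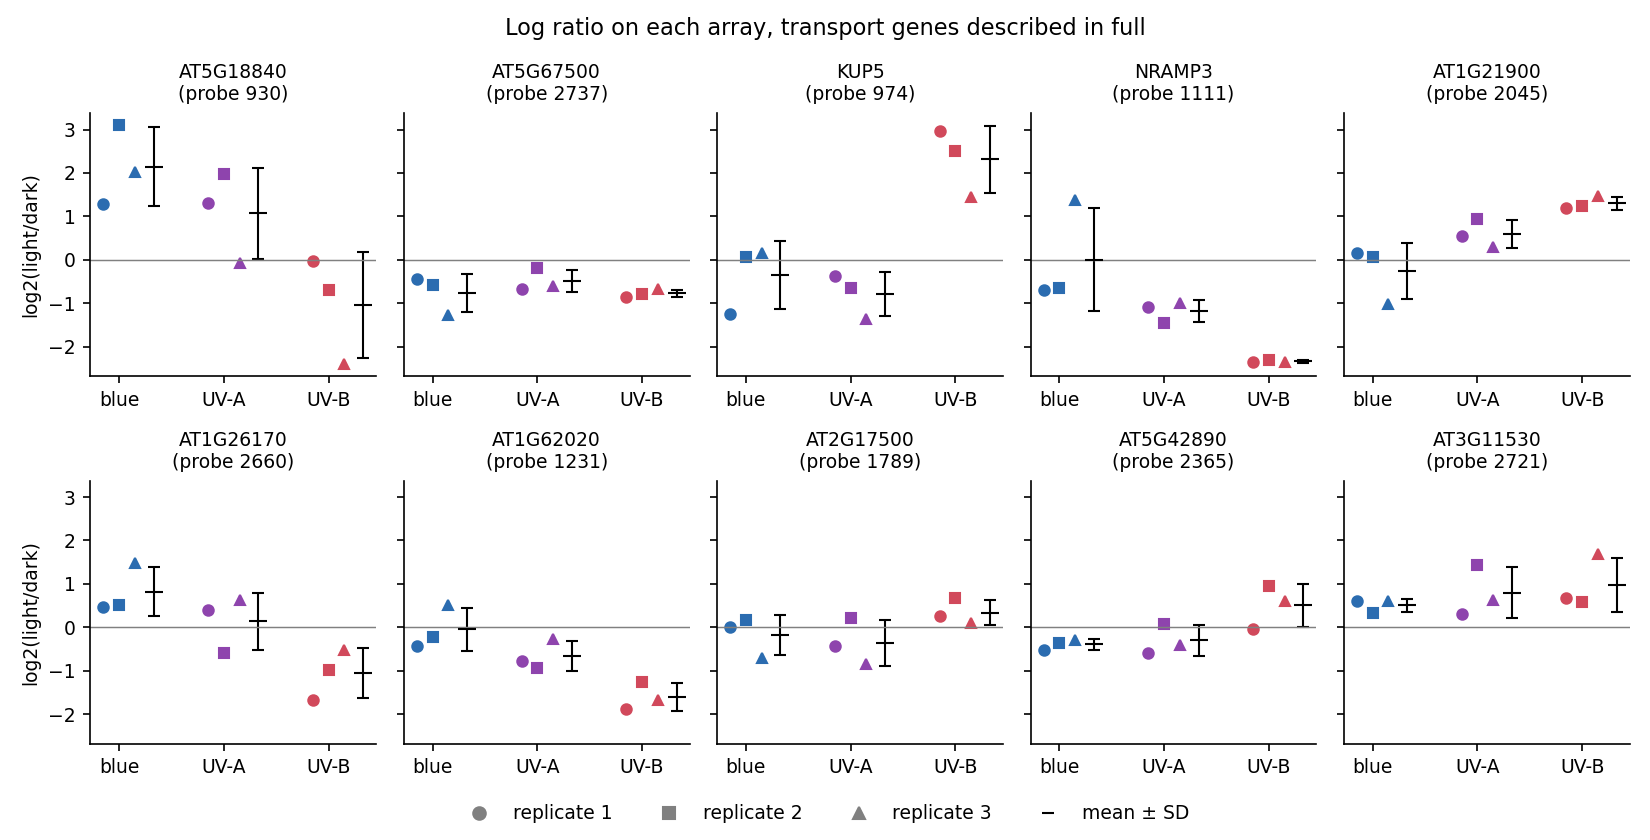
Log2(light/dark) on each array (vertical axis) by light (horizontal axis) for the 8 probes that passed a test and for AT2G17500 and AT5G42890, with replicates as circles, squares and triangles and the mean ± SD of 3 arrays beside them. NRAMP3 and AT1G62020 are lowest in UV-B, KUP5 and AT1G21900 are highest there, and AT5G18840 is highest in blue light.

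Sugar porters held 5 probes of 3 genes. AT5G18840 belongs to the monosaccharide carriers related to ERD6, a dehydration-induced gene. On its probe 930 the log2 values were 1.30, 3.11 and 2.03 in blue light, 1.31, 1.97 and -0.07 in UV-A, and -0.03, -0.69 and -2.40 in UV-B. All blue light arrays were above all UV-B arrays, and UV-A overlapped with both. It rose 4.41-fold in blue light (log2 2.14 ± 0.495 SE, n = 3, adjusted p = 0.0447), and UV-B was lower than blue light by a log2 of -3.18 ± 0.7 (adjusted p = 0.0113), the largest difference between 2 lights among the 40 probes. On arrays of the same number this difference was -1.33, -3.79 and -4.43. It was -2.50 without UV-B replicate 3 and -2.56 without arrays numbered 3 and kept its call (adjusted p = 0.043 and 0.0436). UV-B against UV-A, at -2.11 ± 0.7 (adjusted p = 0.0927), passed with the replicate block (0.0216), and UV-B against dark, at -1.04, passed in the authors' values (0.0481). In UV-B the light channel of probe 930 was near background, at 1.968, 1.67 and 2.347 times it. In blue light it stood at 8.466, 102.6 and 30.48 times background.

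The rise of AT5G18840 in blue light rested on this probe and was near the threshold. It was lost without any 1 of blue replicates 1, 2 and 3 (adjusted p of 0.0506, 0.14 and 0.24), UV-A replicates 1, 2 and 3 (0.0717, 0.0514 and 0.0522) and UV-B replicates 1 and 2 (0.0615 and 0.0513), and without arrays numbered 3 (0.101). Print-tip loess (0.0613), plain subtraction (0.0612) and fitting all spots whatever their weight (0.0518) lost it too, as did the authors' values (0.197), in which the log2 was 1.28. The other probe, 1118, had -0.34, -0.62 and 1.82 in blue light, where replicate 3 was high, and means of 0.29, -1.14 and -0.44 in the 3 lights, none of which passed. In UV-A, where probe 930 had a mean of 1.07, probe 1118 stood at -1.14 ± 0.443 (adjusted p = 0.171), and it passed with the replicate block (0.028) and in the authors' values (0.0313). Between UV-B and blue light probe 1118 differed by -0.73 ± 0.626 (log2, adjusted p = 0.432 in limma), which did not pass. Probe 1118 was slightly brighter, at a mean log2 signal of 10.31 against 10.13 for probe 930. By the rule used here the brightest probe represents a gene, and for AT5G18840 that is probe 1118. The mean of both probes had 1.21 in blue light (adjusted p = 0.0545) and a difference between UV-B and blue light of -1.96 (adjusted p = 0.0118).

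SUT2, a carrier that moves sucrose together with protons, had -0.13, -0.21 and -0.51 in blue light, UV-A and UV-B on probe 1074 and -0.71, -0.16 and -0.04 on probe 1492. No value passed, and the order of the lights differed between the probes. The value in UV-B on probe 1074 (adjusted p = 0.153) passed with plain subtraction (0.0432), print-tip loess (0.0414) and the authors' values (0.0296). AT5G13740, annotated as a sugar porter and antiporter and known to load zinc into the vacuole, had 0.28, 0.19 and 1.01. In UV-B its single values were 0.46, 0.49 and 2.08, with both channels above background on 1 of these 3 arrays and replicate 3 high. The array above background was replicate 3, where 99.3% of spots without a clone were too in the light channel. The mean of 1.01 ± 0.358 (adjusted p = 0.059) passed with the replicate block (0.0274), median centring (0.0135) and plain subtraction (0.0184), where it was 2.07.

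**Figure D3:**
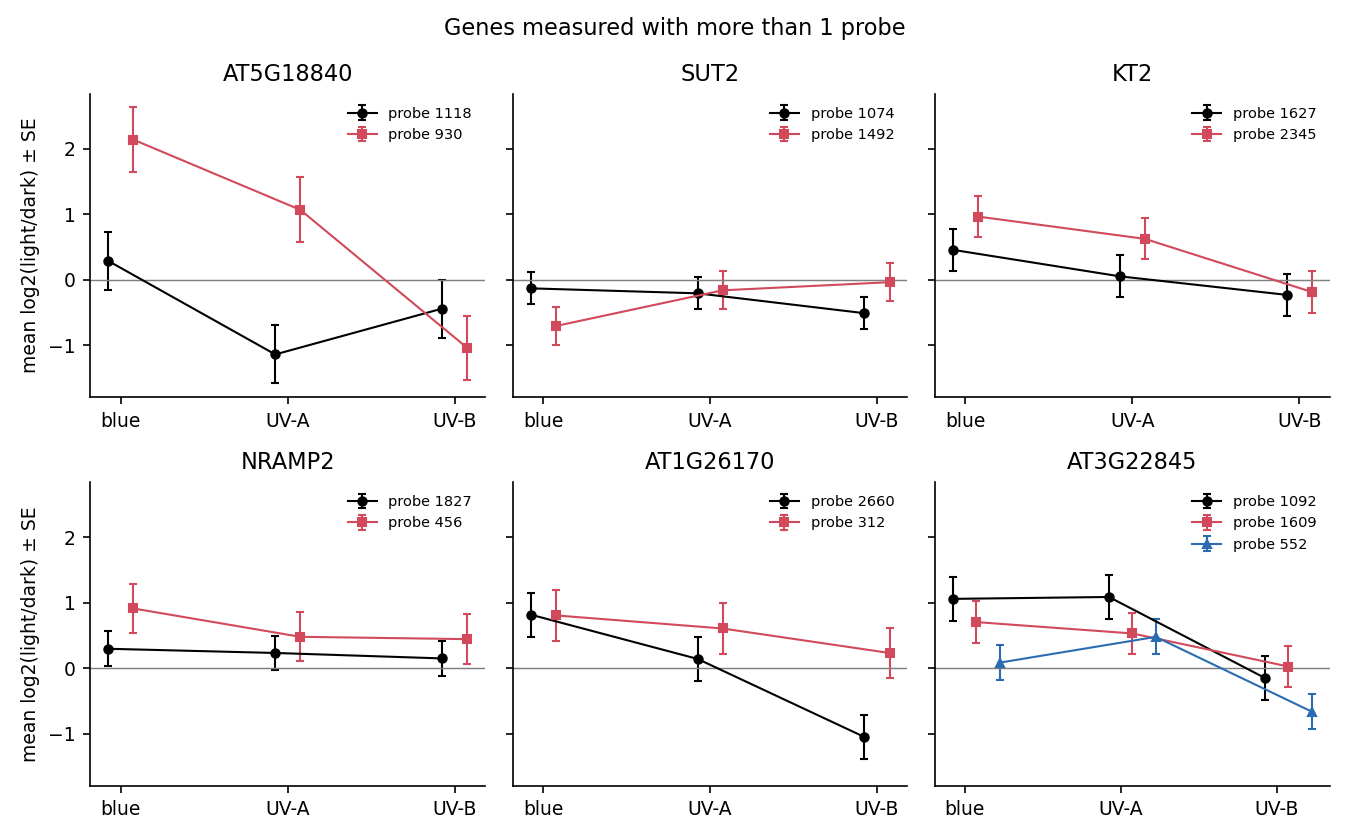
Mean log2(light/dark) ± SE over 3 arrays (vertical axis) by light (horizontal axis) for the 6 genes measured with more than 1 probe, 1 line per probe. The probes of AT5G18840 stand at 2.14 and 0.29 in blue light, and those of AT1G26170 at -1.05 and 0.23 in UV-B.

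Carriers and transporters of proteins held 10 probes of 7 genes, of which 1 rose and 2 fell in UV-B, where 10.8% and 13.9% of all probes did so. AT1G21900 encodes a p24 protein, a membrane receptor that takes cargo into vesicles between the endoplasmic reticulum and the Golgi. Its log2 values were 1.20, 1.23 and 1.47 in UV-B, 0.56, 0.94 and 0.30 in UV-A, and 0.16, 0.07 and -1.01 in blue light. The 3 lights did not overlap, in the opposite order to NRAMP3. It rose 2.46-fold in UV-B (log2 1.30 ± 0.286 SE, n = 3, adjusted p = 0.00664), a call lost without UV-B replicate 3 (adjusted p = 0.0539). UV-B exceeded blue light by 1.56 ± 0.405 (log2, adjusted p = 0.0219), and this was lost with median centring (0.0501) and without blue replicate 3 (0.0547), UV-B replicate 1 (0.0632), UV-B replicate 3 (0.0684) or arrays numbered 3 (0.113).

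A further p24 gene, AT3G22845, was measured by 3 probes. In UV-B they had means of -0.66 (probe 552), 0.03 (probe 1609) and -0.15 (probe 1092), and none passed. Probe 552 passed in UV-B with print-tip loess (adjusted p = 0.0148), in the authors' values (0.0188) and without arrays numbered 3 (0.0389). Its level in UV-B was also below that in UV-A with print-tip loess (adjusted p = 0.023) and in the authors' values (0.0368), and below that in blue light with print-tip loess (0.0311). Probe 1092 had the highest means in the other lights, 1.06 ± 0.34 in blue light (adjusted p = 0.0971) and 1.09 ± 0.34 in UV-A (0.107). Both passed with the replicate block (0.0365 and 0.0375), and the latter did so without blue replicate 3 too (0.0257). On probe 1092 UV-B against blue light, at -1.21 (adjusted p = 0.0983), passed with the block (0.0484) and without blue replicate 1 (0.0467), and UV-B against UV-A, at -1.24, passed without blue replicate 3 (0.0377).

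AT1G62020 encodes a subunit of coatomer, the coat of vesicles that return from the Golgi to the endoplasmic reticulum. Its log2 values were -1.88, -1.25 and -1.68 in UV-B, -0.78, -0.94 and -0.27 in UV-A, and -0.43, -0.21 and 0.52 in blue light. UV-B lay below all 6 arrays of the other lights, which overlapped with each other. It fell to a level 3.04-fold below darkness in UV-B (log2 -1.60 ± 0.279 SE, n = 3, adjusted p = 0.00184), with 1 saturated dark spot in all 9 arrays. UV-B was lower than blue light by -1.56 ± 0.394 (log2, adjusted p = 0.0205), a call lost without blue replicate 3 (adjusted p = 0.0537), UV-B replicate 1 (0.079), UV-B replicate 3 (0.0598) or arrays numbered 3 (0.0998).

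AT1G26170 encodes a nuclear import receptor of the importin beta family. On probe 2660 the log2 values were -1.66, -0.97 and -0.52 in UV-B, 0.39, -0.60 and 0.64 in UV-A, and 0.47, 0.51 and 1.47 in blue light. UV-B lay below blue light on every array, and UV-A overlapped with both. It fell in UV-B (by 1.05 ± 0.335 on the log2 scale, adjusted p = 0.0389) and was lower than in blue light by -1.87 ± 0.474 (adjusted p = 0.0207). The other probe, 312, was slightly brighter (mean log2 signal of 10.24 against 10.08) and represents the gene by the rule used here. It had 0.25, 0.29 and 0.16 in UV-B and did not pass. The mean of both probes lost both calls (adjusted p = 0.416 and 0.0892). The fall was also lost without UV-A replicate 1 (0.0585) or any 1 of UV-B replicates 1, 2 and 3 (0.257, 0.0961 and 0.0603). The difference was lost without blue replicate 3 (0.0619), UV-B replicate 1 (0.0865) or arrays numbered 3 (0.0526). In UV-B the light channel of probe 2660 was near background, at 1.307, 2.425 and 3.457 times it.

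The other genes of this group had no value that passed. The importin alpha gene AT4G16143, which recognises proteins bound for the nucleus, had 0.33, 0.38 and 0.70 in blue light, UV-A and UV-B. The last (adjusted p = 0.127) passed with plain subtraction (0.018). The Golgi tethering protein AT3G27530 had 0.08, 0.07 and 0.15. On UV-B replicates 1 and 2 its probe was near background, at 0.993 and 1.11 times it in the light channel and 1.04 and 1.22 in the dark one. Its small value in UV-B is thus limited by low signal. AT2G42210, of the organelle protein translocases, had -0.29, -0.33 and 0.21.

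The single sterol carrier, AT5G42890, encodes a peroxisomal lipid-binding protein. Its log2 values were -0.04, 0.94 and 0.61 in UV-B, -0.59, 0.09 and -0.40 in UV-A, and -0.53, -0.37 and -0.28 in blue light. UV-B lay above blue light on every array, and UV-A overlapped with both. The means of 0.50 ± 0.27 SE in UV-B (n = 3, adjusted p = 0.207 in limma), -0.30 in UV-A and -0.39 in blue light did not pass. The difference between UV-B and blue light, 0.90 ± 0.381 (log2, adjusted p = 0.12), passed in the authors' values (0.017).

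Other antiporters and symporters held 3 genes, none of which passed. The auxin carrier AT2G17500, of the endoplasmic reticulum, was the brightest of them and had 0.25, 0.67 and 0.10 in UV-B, -0.43, 0.21 and -0.84 in UV-A, and 0.00, 0.16 and -0.70 in blue light. The 3 lights overlapped. Its mean was 0.34 ± 0.289 in UV-B (adjusted p = 0.438). AAC2, the mitochondrial carrier that trades ATP for ADP, had 2.14, 0.23 and 1.19 in blue light, with a mean of 1.18 ± 0.343 (adjusted p = 0.0734, or 0.0368 with the replicate block), and means of 0.78 and 0.29 in UV-A and UV-B. The drug antiporter AT1G61890, of the MATE family of exporters, had 0.41, 0.36 and -0.32.

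The last group, 10 genes annotated as transporters without a cargo, had 1 rise in UV-B, where 10.8% of all probes rose. AT3G11530, which encodes a protein of sorting to the vacuole, had log2 values of 0.68, 0.58 and 1.70 in UV-B, 0.32, 1.45 and 0.62 in UV-A, and 0.60, 0.34 and 0.60 in blue light. All 9 arrays were above 0 and the 3 lights overlapped. It rose 1.98-fold in UV-B (log2 0.98 ± 0.306 SE, n = 3, adjusted p = 0.0354), although both channels were above background on 1 of the 3 UV-B arrays, replicate 3, where the value was highest. On that array 99.3% of spots without a clone were also above background in the light channel. The call of AT3G11530 was lost without UV-B replicate 3 (log2 0.63, adjusted p = 0.268), UV-B replicate 1 (0.0805), UV-A replicate 3 (0.0515) or arrays numbered 3 (0.224), and in the authors' values (0.0514), with print-tip loess (0.0528), with spot weights not applied (0.0627) and with plain subtraction (0.186).

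AT3G16180, of the nitrate transporter family, had the lowest mean in UV-A of the 40 probes. Its log2 values were -1.02, -3.14 and 0.02 in UV-A, -1.09, -2.01 and -1.20 in UV-B, and 0.26, -1.96 and 0.01 in blue light. Replicate 2 was the lowest in each light. The probe had 1 saturated dark spot in all 9 arrays. The means of -1.38 ± 0.545 in UV-A (adjusted p = 0.178) and -1.43 ± 0.545 in UV-B (0.0775) did not pass, and both did with the replicate block (0.0208 and 0.00531). The block left both means as they were and lowered their SE to 0.312, so these p-values leave out the spread between numbers. The mean in UV-B also passed without UV-A replicate 2 (0.0332).

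AT4G01100, a mitochondrial carrier of adenine nucleotides, had 0.41 in blue light, -0.55 in UV-A and 0.57 in UV-B. Its single values were -0.65, -0.71 and -0.28 in UV-A, below all 6 values of the other lights. The difference between UV-B and UV-A was 1.12 ± 0.371 (log2, adjusted p = 0.0923, or 0.0457 with the replicate block). The dicarboxylate carrier AT2G22500 of mitochondria had -0.79, -0.50 and -0.10 in blue light, UV-A and UV-B. None of these passed, and the value of UV-B replicate 2, 1.21, lay above 0 where the other UV-B arrays had -0.43 and -1.08.

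The remaining genes without a cargo had no value that passed in the 3 tests against darkness. The lipocalin AT5G58070, a small lipid-binding protein induced by temperature, had -0.83 in blue light and -0.01 and 0.11 in UV-A and UV-B. The autophagy gene AT5G17290, which takes part in forming autophagosomes, had -0.09, 0.44 and 0.28, and the vesicle coat gene AT2G27460 had 0.63, 0.80 and 0.61. AT1G14670 had -0.29, 0.45 and 0.20 and AT2G01970 had 0.27, -0.12 and -0.35. Both belong to a family of membrane proteins with multiple spans in the endomembrane system, and the latter passed in UV-B in the authors' values (adjusted p = 0.0487). AT1G22540, of the peptide and nitrate transporter family, had -0.07, -0.01 and 0.13 and was above background in the light channel on 1 of 3 UV-B arrays. This was replicate 3, where 99.3% of spots without a clone were too.

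Set against each other, the lights separated UV-B from blue light most clearly. UV-B against blue light had 2 of 40 probes higher (KUP5 and AT1G21900) and 4 lower (AT5G18840, NRAMP3, AT1G26170 and AT1G62020), or 5% and 10%, where 8.06% and 10.3% of all probes were called. The 6 together are 15%, where 18.3% of all probes were called. These 6 kept their direction on the arrays of each number, and their groups did not overlap. They were picked by a test on these same arrays, so this adds no support. Probes that did not pass, such as SULTR3;5 and AT5G42890, did the same. UV-A against blue light had no call among the members, and 0% of all 2507 probes passed either. Without adjustment 3 of the 40 had a p under 0.05 for UV-A against blue light, where the share of all probes was not counted. With the replicate block also none passed. The 95% confidence intervals of these 40 differences reached from -2.80 to 1.85 on the log2 scale, from the lowest bound of AT5G18840 on probe 1118 to the highest bound of AT5G58070. For NRAMP3 the interval was -2.32 to -0.06. A test of any difference among the 3 lights called 3 probes (7.5%, where 10.3% of all were called): KUP5 (adjusted p = 0.00532), AT5G18840 (0.0313) and NRAMP3 (0.0354). With the replicate block it called 6 (15%, where 21.8% of all were called). UV-B against UV-A had 1 call, or 3 with the block (7.5%, where 15.1% of all were called). Comparisons that share a light share its arrays.

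**Figure D4:**
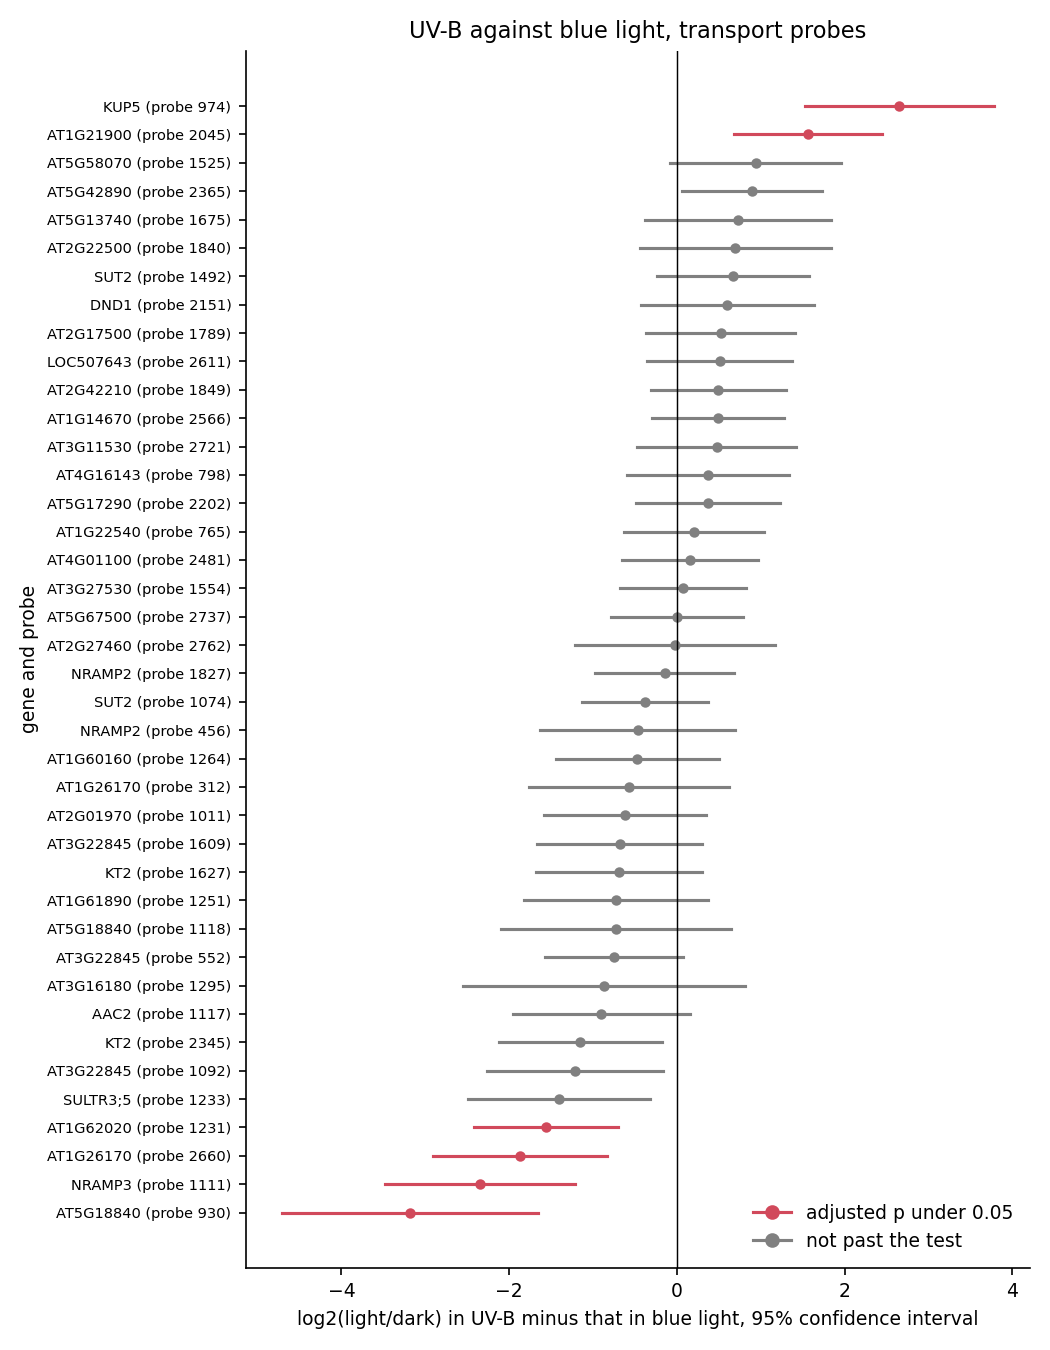
Difference between the mean log2(light/dark) in UV-B and in blue light (horizontal axis) with its 95% confidence interval for each of the 40 transport probes (vertical axis, ordered by the difference), in red where the adjusted p was under 0.05. The ends of the order are KUP5 at 2.65 and AT5G18840 at -3.18, and 6 probes are red.

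Pumps and further transport proteins that the naming rule leaves out were taken by a pattern list of 14 probes (13 names, of which 2 are those of genes of other organisms). In UV-B 3 rose and 1 fell, where 10.8% and 13.9% of all probes did so, and none passed in blue light or UV-A. AT5G08690, the catalytic subunit of the mitochondrial ATP synthase, rose 3.33-fold (log2 1.74 ± 0.283 SE, adjusted p = 0.00132), while AT2G33040, the shaft subunit of the same enzyme, fell by 1.04 ± 0.284 (log2, adjusted p = 0.02). AT3G58730, of the vacuolar proton pump, had 0.93 ± 0.269 (adjusted p = 0.0263) and was the single gene of that pump to rise. The others, VHA-A, VHA-E3, VMA10 and AT1G20260, had 0.27, 0.08, 0.32 and 0.15 in UV-B and did not pass. The amino acid carrier AAP5 had 0.55 on probe 1434 and -1.08 on probe 2133, of which neither passed. AT2G34250, a protein translocase, rose by 0.80 ± 0.251 (adjusted p = 0.0358). AHA1, the proton pump of the plasma membrane, had 0.62, 0.76 and 0.48 in blue light, UV-A and UV-B and did not pass. The list's median was 0.22 in UV-B, against 0.14 for the 40 transport probes and 0.01 over all probes.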

How the data were processed

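The deposited files of the 9 arrays hold foreground and background intensity of 6272 spots for both channels, on a linear scale, and a score (weight) of 0 or 1 per spot. The 972 spots with weight 0 were not used, which also removed 9 probes that the naming rule would take. The authors also deposited processed log2 values, which served as an alternative over 2506 shared probes. Each column had a mean of 0 and a median between -0.165 and 0.047. Set against the arrays, they ran as dark over light (r of -0.963 to -0.854), and their sign was turned. How they were normalized, and with which scanner, is not stated in the labels. Further arrays of dark RNA made to correct dye bias are not analysed here.

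Intensity was corrected by normexp (offset 50), normalized by loess within arrays and averaged over spots (limma 3.58.1 in R 4.3.3). Figures used Python 3.11.15 and matplotlib 3.10.9. A probe needed a foreground 1.5 times its background in 1 channel on 3 arrays, which removed none. One model held a mean per light, and 7 tests were made and tried on simulated data. The number of arrays limits the precision. Groups came from sample titles, as the description names blue light for all samples. Same-numbered arrays of different lights deviated together (correlations of 0.105 to 0.622 in all 9 pairs, and at most 0.0591 in the 18 others). The number was therefore used as a block in an alternative fit. The main fit did not include it, so its tests between lights were not paired by number. The labels do not state whether arrays of one number shared a dark sample, which would be part of every ratio made with it, so what the block removes is not known.

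Full values are given for genes with a probe that passed any test and for the brightest gene of a role group without one. Roles grouped the names by their text. The members, lists and rules were chosen with earlier results of these data known. One probe that the naming rule takes is not reported here and is left out of all counts of members, though the fit includes it. The alternative without arrays numbered 3 was chosen after seeing the data. No table of turnip genes or clone sequences was used here, so neither coordinates nor sequences are given.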

Additional observations from a re-analysis of the deposited data

Results flagged for a closer look

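In 7 comparisons of 6 transport probes, the response to one light differed from that to another by limma's test of the difference itself. UV-B exceeded blue light for KUP5 (log2 difference 2.65, higher on 3 of 3 same-numbered array pairs) and for AT1G21900 (1.56, 3 of 3). UV-B was below blue light for AT5G18840 on probe 930 (-3.18), NRAMP3 (-2.34), AT1G26170 on probe 2660 (-1.87) and AT1G62020 (-1.56), on 3 of 3 pairs each. UV-B exceeded UV-A for KUP5 (3.1, 3 of 3 pairs). Adjusted p-values ran from 0.00343 to 0.0219. The pairs are made of the arrays that the test itself used, so they add no support to it.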

How the results depend on the processing

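Of 15 calls of a named probe in a comparison, 7 were kept under every alternative run (18 or 19 each): all those of KUP5 and NRAMP3, the fall of AT1G62020 in UV-B, and AT5G18840 between UV-B and blue light. An alternative counted among them, the fit with no filter on dim probes, repeats the main fit because the filter removed none, so it keeps every call. Over all 15, 224 of 274 alternative values kept the call, 50 fell short of the threshold and none changed sign. The cause of lost calls was not tested. Against darkness, the count of transport probes called in blue light (1) was 0 without arrays numbered 3, with print-tip loess, plain subtraction or weights not applied and in the authors' values, and 4 with the replicate block. Of all probes, 87 were called in the main fit, 0, 75, 49, 75 and 18 in these alternatives, and 404 with the block. In UV-A the members' count (0) was 1 with print-tip loess, 2 with the authors' values and 4 with the block. Of all probes, 101, 119 and 279 were called there, against 80 in the main fit. In UV-B the members' count (7) was 11 with the authors' values, where 762 of 2506 probes were called, against 620 of 2507 in the main fit. UV-B against UV-A (1 member, and 166 of all probes) had 2 with print-tip loess or the authors' values (210 and 260 of all), and 3 with the block (379 of all). The test among the 3 lights (3 members, and 257 of all probes) had 5 with print-tip loess or the authors' values (307 and 381 of all). It had 6 with the block (546 of all) and 1 without arrays numbered 3 (91 of all). UV-B against blue light (6 members, and 460 of all probes) had 3 without these arrays (186 of all). Leaving out 1 array gave 0 to 1 calls in blue light, 0 to 2 in UV-A, 3 to 8 in UV-B, 0 throughout for UV-A against blue light, 3 to 8 for UV-B against blue light, 1 to 3 for UV-B against UV-A and 1 to 4 among the 3 lights. Of all 2507 probes, these fits called, in the same order, 0 to 102, 0 to 133, 271 to 737, 0, 218 to 460, 75 to 278 and 97 to 267. UV-B against darkness had 4 members called when UV-B replicate 1 was left out (329 of all probes) and 3 when UV-B replicate 3 was (271 of all). UV-B against blue light had 3 without blue replicate 3 or UV-B replicate 1 (282 and 235 of all). UV-B against UV-A had 3 without blue replicate 3 (278 of all), and UV-A against darkness had 2 (133 of all). The test among the 3 lights had 1 without UV-A replicate 1, UV-B replicate 2 or UV-B replicate 3 (160, 267 and 103 of all). The replicate block gave 9 calls in UV-B against darkness (22.5%, where 32.8% of all probes were called). Against blue light it gave 8 (20%, where 28.8% of all were called), and it ended none of the 15 calls. The strict filter on dim probes kept 39 of the 40. Low signal on UV-B replicates 1 and 2 limits what can be read from dim probes in UV-B.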
